A study of Homo sapiens with 27 samples.

Results

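The response to knockdown of GATA2 was compared between 22Rv1-DR and DU145-DR, which are chemotherapy-resistant forms of human castration-resistant prostate cancer lines. In each line, 3 libraries carried the short hairpin RNA shGATA2a, 3 carried shGATA2b and 3 carried a control hairpin (Control). These 18 libraries were taken from a series of 27, and the 9 libraries of the resistant line ARCaPM-DR were outside this contrast. All groups share the resistant state, so none shows the response of a drug-sensitive parent line, and each line stands for itself alone. For each gene, the response in a line was taken as both hairpin groups, averaged, less Control on log2(value + 1), with the replicate number within the line as a block. The response difference was the response in 22Rv1-DR minus that in DU145-DR, so a positive value means a response that was higher, or less negative, in 22Rv1-DR. The deposited table lists 23228 gene symbols; 14811 reached a value of 10 in 3 or more of the 18 libraries, and these were tested. Nothing in the labels ties replicates to independent cultures, and the p-values therefore describe the spread among these libraries, which may be technical.

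GATA2 is a zinc finger transcription factor that binds GATA motifs in DNA. In luminal prostate cells it helps to open chromatin for other transcription factors. 22Rv1 cells are known to make prostate-specific antigen, whereas DU145 cells are known as a prostate cancer line that does not.

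Luminal prostate markers were compared with the names of the lines. Levels are normalised read counts, and knockdown means cover 6 libraries and control means 3 (mean ± SD). KLK3, which encodes prostate-specific antigen, stood at 24.9 to 60.4 in 22Rv1-DR knockdown libraries and at 93.7 to 121 in their controls, and was at 0 in all 9 DU145-DR libraries. The sum of 10 luminal prostate markers ran from 38799 to 49471 in 22Rv1-DR knockdown libraries and from 50600 to 52034 in their controls. In DU145-DR that sum ran from 5591 to 9799 in knockdown libraries and from 5145 to 8306 in controls, with 3 of the 10 markers at 0 throughout. Depth was 9.996 to 15.9 M recovered reads in 22Rv1-DR and 8.08 to 16.97 M in DU145-DR.

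GATA2 itself fell in both lines. It stood at 966, 1348 and 840.1 normalised read counts in 22Rv1-DR shGATA2a libraries, at 806, 1738 and 1101 with shGATA2b, and at 3444, 4307 and 3052 in the controls. In DU145-DR it stood at 225, 334 and 288 with shGATA2a, at 266, 385 and 346 with shGATA2b, and at 1255, 1135 and 925 in the controls. All 6 knockdown libraries lay below all 3 controls in each line. The response was -1.71 on the log2 scale in 22Rv1-DR and -1.85 in DU145-DR, and the difference of 0.15 (SE 0.21) did not pass the test (limma, Benjamini-Hochberg adjusted p = 0.69). The difference ran from -0.10 to 0.30 over the fits that each left out 1 library, and it was -0.10 without DU145-DR Control replicate 1. In 12 of the 18 libraries the GATA2 value was not a whole number of reads, so its exact levels are uncertain.

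In 1400 of 14811 genes, 9.45% of those tested, the response differed between the lines (limma, adjusted p under 0.05), and 276 of these differed by at least 2-fold. The response was higher in 22Rv1-DR for 639 genes (4.31%) and lower for 761 genes (5.14%). Within 22Rv1-DR, 548 genes (3.70%) rose and 670 (4.52%) fell with knockdown, and within DU145-DR, 1166 (7.87%) rose and 1267 (8.55%) fell. Of 333 genes that passed in both lines, 232 moved the same way and 101 moved in opposite directions. Across all tested genes, which are not independent replicates, the responses of the lines correlated at 0.14 (Pearson).

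By calls within each line, a lower response in 22Rv1-DR most often went with a rise in DU145-DR. Of these 761 genes, 367 rose in DU145-DR without a call in 22Rv1-DR, 219 fell in 22Rv1-DR without a call in DU145-DR, 64 did both, 101 passed in neither line and 10 moved the same way in both. Of the 639 genes with a higher response in 22Rv1-DR, 427 fell in DU145-DR without a call in 22Rv1-DR, 103 rose in 22Rv1-DR without a call in DU145-DR, 37 did both, 70 passed in neither line and 2 moved the same way in both. Most were expressed in both lines: 1311 of the 1400 had a mean value of at least 10 in each, as did 12128 of all 14811 genes tested. A gene without a call in a line may still have responded there, and the balance of calls between the lines was unstable. In 22Rv1-DR and DU145-DR, 1218 and 2433 genes passed in the main fit, and 860 and 629 without DU145-DR Control replicate 1. The counts were 2369 and 2602 without 22Rv1-DR Control replicate 2, and 1264 and 4754 without 22Rv1-DR Control replicate 3.

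These counts rest on the replicate block and on single controls, each the only control of its replicate number in a line. With the block, leaving out a control therefore takes its whole replicate number out of that line's response. The median difference over all genes was -0.0025 both without DU145-DR Control replicate 1 and without all of DU145-DR replicate 1. A call lost without a control is thus a loss of that replicate number. The library 22Rv1-DR Control replicate 3 stood apart: its read counts differed from those of the other 22Rv1-DR controls by 103.7 and 99.8 chi-square per degree of freedom, while no other pair of replicates exceeded 34.6. Without the block, 157 genes differed. With it, 426 differed without DU145-DR Control replicate 1, 750 without DU145-DR Control replicate 2, 861 without DU145-DR Control replicate 3, and 2627 without 22Rv1-DR Control replicate 3. Within the lines, the 1218 calls in 22Rv1-DR were 189 and the 2433 calls in DU145-DR were 762 without the block. The 22Rv1-DR calls were 690, 676 and 580 without 22Rv1-DR shGATA2a replicate 1, shGATA2a replicate 3 and shGATA2b replicate 3, and 2369 without 22Rv1-DR Control replicate 2. The DU145-DR calls were 629, 1273 and 1504 without DU145-DR Control replicates 1, 2 and 3, and 4754 without 22Rv1-DR Control replicate 3, which enters that line's test through the shared estimate of spread. The hairpins taken singly gave 1180 genes with shGATA2a and 426 with shGATA2b. The sign of all 1400 differences was kept in each of these settings, which adds little. Without the block the estimate itself is the same, and the other fits reuse libraries from which the 1400 were picked. In what follows, the call of a named gene for the response difference held when any 1 of the 18 libraries was left out. Where it did not, the libraries without which it was lost, or their number, are given. Calls of named genes within a line were not followed in this way.

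**Figure D1:**
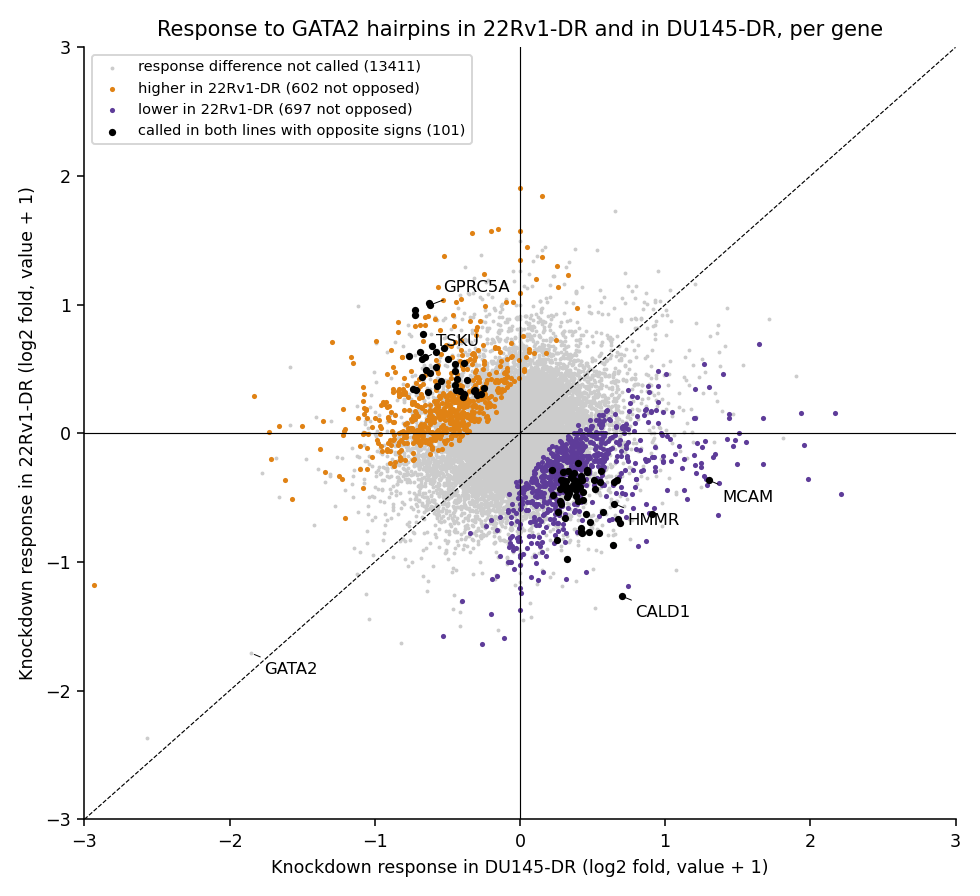
Each point is 1 of 14811 tested genes, with the knockdown response (log2 fold on value + 1) in DU145-DR on the horizontal axis and in 22Rv1-DR on the vertical axis, and the dashed line at equal responses. The 1400 genes whose responses differed are coloured, the 101 that passed in both lines with opposite signs are black, and GATA2 lies near the dashed line.

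Of the 101 genes with opposite responses, 37 rose in 22Rv1-DR and fell in DU145-DR. The 6 with the smallest p for the difference are described here. GPRC5A, an orphan receptor induced by retinoic acid, stood at 124, 243 and 357 in 22Rv1-DR shGATA2a libraries, at 109, 209 and 339 with shGATA2b, and at 49.0, 143 and 161 in the controls. In DU145-DR it stood at 705, 949 and 1039 with shGATA2a, at 745, 1078 and 1226 with shGATA2b, and at 1264, 1469 and 1628 in the controls. In DU145-DR all knockdown libraries lay below all controls; in 22Rv1-DR the groups overlapped, but within each replicate number both hairpins lay above the control. The difference for GPRC5A was 1.62 (SE 0.15, adjusted p = 0.00014), with a response of 0.995 in 22Rv1-DR and -0.62 in DU145-DR.

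TSKU, a secreted leucine-rich proteoglycan, separated the groups completely in both lines. It stood at 1356, 1449.8 and 1056 in 22Rv1-DR shGATA2a libraries, at 1123, 1367 and 1059 with shGATA2b, and at 914, 908 and 669.9 in the controls. Its DU145-DR values were 234, 240.4 and 249.7 with shGATA2a, 246, 319 and 279.5 with shGATA2b, and 454, 412 and 383 in the controls. The difference was 1.25 (SE 0.13, adjusted p = 0.0003). TPCN1, an endolysosomal cation channel, was likewise free of overlap. Its 22Rv1-DR knockdown libraries ran from 2513 to 2868 (median 2650.1), against 2351, 2037 and 1960.1 in the controls, and its DU145-DR knockdown libraries ran from 399 to 573 (median 470.3), against 817, 714 and 811 in the controls. The difference for TPCN1 was 1.06 (SE 0.14, adjusted p = 0.0011).

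The other 3 genes of this kind overlapped in one of the lines. CTSA, the lysosomal protease cathepsin A, averaged 844 ± 213 in 22Rv1-DR knockdown libraries and 594 ± 266 in their controls, and 1109.5 ± 146 in DU145-DR knockdown libraries and 1756 ± 314 in their controls. Its difference was 1.25 (adjusted p = 0.0011), with overlap in 22Rv1-DR. TBC1D17, a GTPase-activating protein for Rab proteins, differed by 1.08 (adjusted p = 0.00076), also with overlap in 22Rv1-DR. HIST1H1C, a linker histone, averaged 386 ± 62.6 in 22Rv1-DR knockdown libraries and 245 ± 49.0 in their controls, and 492 ± 86.4 in DU145-DR knockdown libraries and 715 ± 187 in their controls. Its difference was 1.18 (adjusted p = 0.0003), and in DU145-DR the groups overlapped, with the controls at 873, 764 and 509.

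The other 64 opposed genes fell in 22Rv1-DR and rose in DU145-DR. CALD1, which encodes the actin-binding protein caldesmon, showed the largest difference of the 6 named. It stood at 1026, 1075 and 1487 in 22Rv1-DR shGATA2a libraries, at 918, 1239.9 and 1484 with shGATA2b, and at 2348, 2267 and 4346 in the controls. In DU145-DR it stood at 136, 229 and 237 with shGATA2a, at 144, 235 and 235 with shGATA2b, and at 78.3, 125 and 179.9 in the controls. All 22Rv1-DR knockdown libraries lay below all controls, whereas in DU145-DR the replicate 1 knockdown libraries lay below the replicate 3 control. The difference was -1.97 (SE 0.16, adjusted p = 0.00013), and over the 18 fits that left out 1 library each it ran from -2.12 to -1.82.

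MCAM, a cell adhesion molecule of the immunoglobulin superfamily, moved mainly in DU145-DR. There it stood at 4288, 3603 and 3628 with shGATA2a, at 3136, 3126 and 4069 with shGATA2b, and at 1403, 1498 and 1503 in the controls, with no overlap. The 22Rv1-DR knockdown libraries ran from 797 to 1283 (median 1074), against 1077, 1172 and 1870.5 in the controls, and overlapped them. The difference for MCAM was -1.66 (SE 0.14, adjusted p = 0.00013), with a response of -0.36 in 22Rv1-DR and 1.301 in DU145-DR. TOMM22, a receptor of the mitochondrial outer membrane import pore, moved more in 22Rv1-DR. Its 22Rv1-DR knockdown libraries ran from 301 to 355 (median 334), against 639, 583 and 547 in the controls, and its DU145-DR knockdown libraries ran from 1089.9 to 1322 (median 1293), against 1037, 1081 and 1013 in the controls. The groups of TOMM22 overlapped in neither line, and the difference was -1.08 (SE 0.11, adjusted p = 0.0003).

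HMMR, a hyaluronan-binding protein of the mitotic spindle, differed by -1.19 (adjusted p = 0.00035). FBXO45, a substrate-binding subunit of a ubiquitin ligase, differed by -0.83 (adjusted p = 0.00045), and SFXN3, a mitochondrial sideroflexin, by -0.81 (adjusted p = 0.0003). In each of these genes all DU145-DR knockdown libraries lay above all controls, while the 22Rv1-DR groups overlapped and separated within each replicate number. Without the block, GPRC5A, CTSA and SFXN3 lost their calls for the difference and the other 9 opposed genes named kept theirs. Keeping that call does not keep a gene opposed, since opposed genes must also pass in both lines. The count of 101 opposed genes was unstable: it was 1 without the block, 15 with shGATA2b alone and 61 with shGATA2a alone. It was 21 without DU145-DR Control replicate 1 and 216 without 22Rv1-DR Control replicate 3. Without DU145-DR shGATA2b replicate 2 or 3, 22Rv1-DR Control replicate 2 or 22Rv1-DR shGATA2a replicate 2 it was 75, 70, 148 and 77, and without any 1 of the other 12 libraries it lay between 40 and 67.

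**Figure D2:**
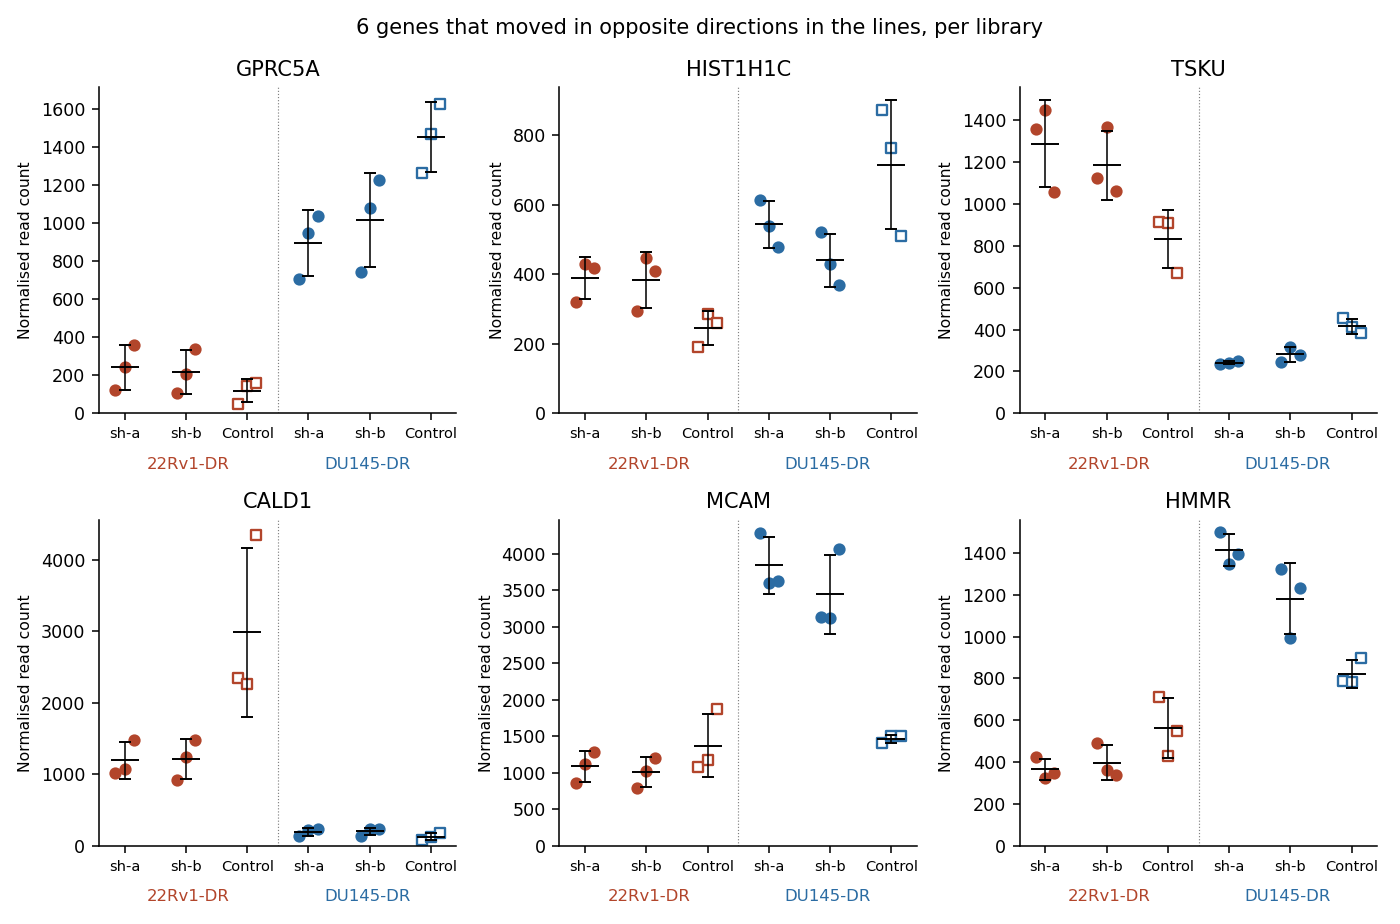
Normalised read counts of 6 opposed genes in each of the 18 libraries, with shGATA2a (sh-a), shGATA2b (sh-b) and Control for 22Rv1-DR on the left and for DU145-DR on the right of each panel; bars are the mean and SD of 3 libraries. GPRC5A, HIST1H1C and TSKU were higher with knockdown in 22Rv1-DR and lower in DU145-DR, and CALD1, MCAM and HMMR the reverse, with overlap in 22Rv1-DR for GPRC5A, MCAM and HMMR and in DU145-DR for HIST1H1C and CALD1.

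Promoters of 3 opposed genes are printed because the hairpins target a factor that binds a known motif. Each is the 250 bases before the gene start in RefSeq (build GRCh38.p14), 5′ to 3′ on the gene's strand, here the plus strand: chr12:113221214-113221463 for TPCN1, chr3:196568410-196568659 for FBXO45 and chr7:134779384-134779633 for CALD1. Capitals mark a GATA motif, which was searched on both strands as AGATAA or AGATAG and as TGATAA or TGATAG.
TPCN1: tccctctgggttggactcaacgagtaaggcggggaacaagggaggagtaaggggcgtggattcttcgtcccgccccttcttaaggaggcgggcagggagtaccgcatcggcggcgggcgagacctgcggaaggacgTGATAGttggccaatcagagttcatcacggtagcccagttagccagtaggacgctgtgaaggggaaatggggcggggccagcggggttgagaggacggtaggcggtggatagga
FBXO45: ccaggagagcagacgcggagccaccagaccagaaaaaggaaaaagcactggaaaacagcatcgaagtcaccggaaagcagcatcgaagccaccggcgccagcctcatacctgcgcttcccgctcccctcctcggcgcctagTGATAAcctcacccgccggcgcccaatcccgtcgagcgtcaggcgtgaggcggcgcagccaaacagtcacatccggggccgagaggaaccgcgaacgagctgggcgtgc
CALD1: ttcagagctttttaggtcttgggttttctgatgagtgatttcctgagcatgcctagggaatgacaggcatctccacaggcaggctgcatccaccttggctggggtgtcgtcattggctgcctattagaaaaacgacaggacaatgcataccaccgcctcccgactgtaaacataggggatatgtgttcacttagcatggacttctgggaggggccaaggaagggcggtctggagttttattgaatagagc
TPCN1 and FBXO45 each held 1 motif, and CALD1, with the largest difference of the opposed genes named, held none in this window. Of the 12 opposed genes named, 10 had a RefSeq promoter in the table, and TPCN1 and FBXO45 were the only 2 of these with a motif. A motif stood in 70 of 508 promoters (13.8%) of genes with a higher response in 22Rv1-DR, in 87 of 598 (14.5%) of genes with a lower response, and in 1558 of 11471 (13.6%) of all tested genes with a RefSeq promoter. A match is a description of these letters and not a binding site.

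The largest differences were ranked among genes with whole values, a mean of 50 or more, and complete separation of knockdown from control in the line that moved more. In 14 of these 20 genes that line was DU145-DR. SDC1, a transmembrane heparan sulfate proteoglycan, had a higher response in 22Rv1-DR and was well expressed in both lines. It stood at 519.9, 596 and 536 in 22Rv1-DR shGATA2a libraries, at 477, 544 and 521 with shGATA2b, and at 399, 448 and 398 in the controls. Its DU145-DR values were 524, 904 and 826 with shGATA2a, 484, 795 and 962 with shGATA2b, and 1426, 1769 and 1423 in the controls. The groups of SDC1 separated in both lines in opposite directions, but the response of 0.36 in 22Rv1-DR missed the threshold (adjusted p = 0.082). The difference was 1.44 (SE 0.17, adjusted p = 0.00063).

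JUP, GIPC3 and PAK6 fell in DU145-DR, where they were scarce, and did not pass in 22Rv1-DR, where they were abundant. JUP, the junction protein plakoglobin, averaged 3156 ± 417 in 22Rv1-DR knockdown libraries and 3065 ± 668 in their controls, and 19.7 ± 7.39 in DU145-DR knockdown libraries and 56.0 ± 16.2 in their controls, a difference of 1.56 (adjusted p = 0.0037). The difference was 1.74 for GIPC3, an adaptor protein (adjusted p = 0.00076), and 1.41 for PAK6, a serine/threonine kinase (adjusted p = 0.0045). RCAN2, a regulator of calcineurin, moved more in 22Rv1-DR. It ran from 144 to 202 (median 195) in 22Rv1-DR knockdown libraries, against 98.0, 103 and 83.1 in the controls, while DU145-DR libraries held 0.863 to 8.64 with knockdown and 4.32 to 8.48 in controls. Its difference was 1.68 (adjusted p = 0.0066).

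In the other genes on this side, a line had few reads or the call was lost when single libraries were left out. GUCY1B3, a subunit of soluble guanylate cyclase, differed by 2.12 (adjusted p = 0.0064), on DU145-DR values of 0 to 2.79 with knockdown and 4.28 to 13.7 in controls. SELENBP1, a selenium-binding protein, differed by 1.71 (adjusted p = 0.015) on DU145-DR values of 0 to 1.21 and 1.43 to 4.32, and lost its call without DU145-DR Control replicate 1 or 3. PAX2, a paired box transcription factor, differed by 1.45 (adjusted p = 0.0091), lost without DU145-DR Control replicate 1. SNAI2, the repressor SLUG, differed by 1.69 (adjusted p = 0.027) on 22Rv1-DR values of 5.004 to 9.69 with knockdown and 0 to 3.97 in controls, and lost its call in 6 of the 18 fits without 1 library. DUSP2, a phosphatase of ERK kinases, had responses of -1.18 in 22Rv1-DR and -2.93 in DU145-DR; its difference of 1.75 (adjusted p = 0.038) was lost in 12 of 18 fits.

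On the side of a lower response in 22Rv1-DR, CALD1 and MCAM were joined by genes that rose in DU145-DR. ITGB3, the integrin β3 subunit, stood at 755, 570.1 and 599.7 in DU145-DR shGATA2a libraries, at 583, 517 and 645 with shGATA2b, and at 238, 230.3 and 234 in the controls. In 22Rv1-DR it was scarce, at 4.17 to 16.2 with knockdown and 10.6 to 11.9 in controls. ITGB3 separated completely in DU145-DR and overlapped in 22Rv1-DR; its difference was -1.75 (SE 0.29, adjusted p = 0.0037). SLC12A8, a member of the cation-chloride cotransporter family, averaged 213 ± 27.01 in 22Rv1-DR knockdown libraries and 220.2 ± 11.3 in their controls, and 106 ± 30.3 in DU145-DR knockdown libraries and 36.9 ± 9.04 in their controls, a difference of -1.54 (adjusted p = 0.003).

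ZFP37, a zinc finger gene, and MYEOV, a gene known from myeloma, moved in both lines in opposite directions, each with overlap in 1 line. ZFP37 overlapped in 22Rv1-DR, with knockdown libraries up to 137 and controls from 116. MYEOV overlapped in DU145-DR, with knockdown libraries from 61.6 and controls up to 91.3. The difference was -1.53 for ZFP37 (adjusted p = 0.0018) and -1.51 for MYEOV (adjusted p = 0.0064). TRNP1, a nuclear protein known from neural progenitors, fell in 22Rv1-DR, with 180.5 to 252 (median 231) in the knockdown libraries against 486, 401 and 513 in the controls, and differed by -1.53 (adjusted p = 0.0015). SV2A, a synaptic vesicle glycoprotein, differed by -1.51 (adjusted p = 0.0071) on DU145-DR values of 16.7 to 23.3 with knockdown and 3.56 to 10.4 in controls. XDH, xanthine dehydrogenase, and EDN2, an endothelin, each held at most 16.2 in any DU145-DR library. XDH differed by -2.05 (adjusted p = 0.0024) and EDN2 by -2.00 (adjusted p = 0.0048). Of the 20 genes with the largest differences, 14 also passed without the block; DUSP2, SNAI2, RCAN2, PAX2, EDN2 and MYEOV did not.

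**Figure D3:**
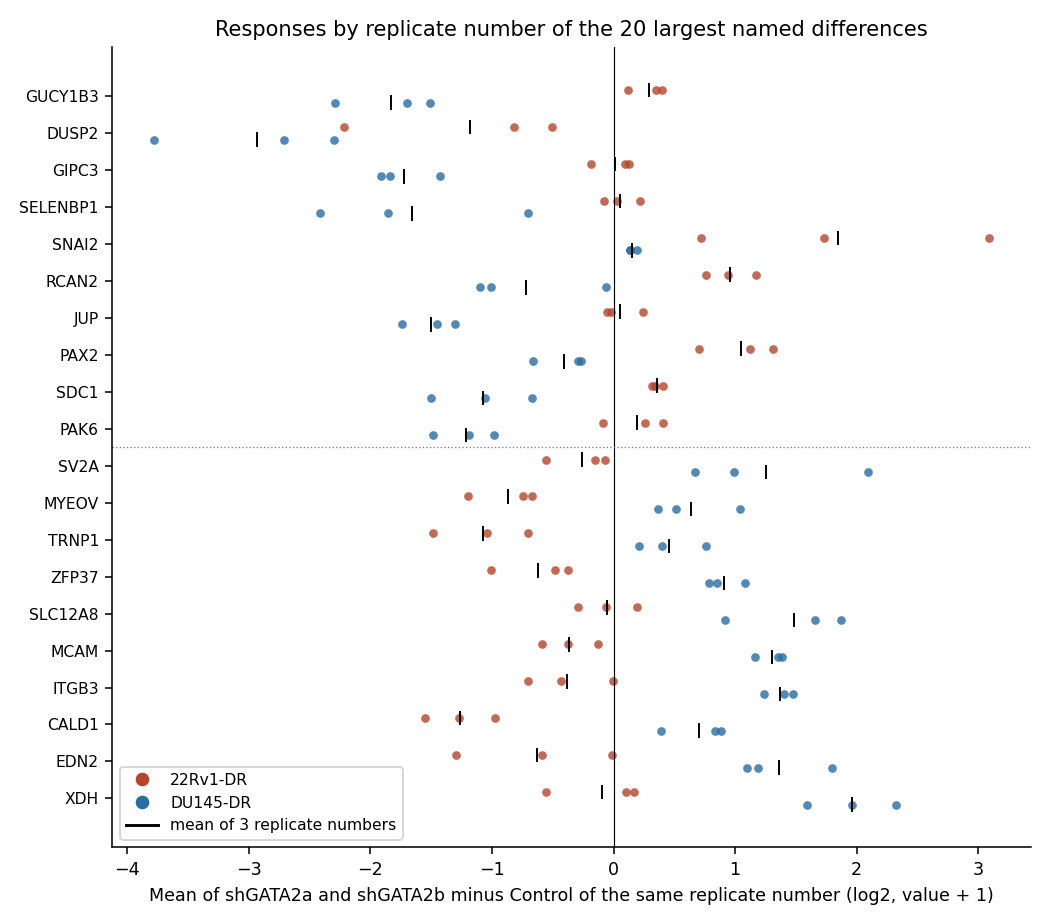
For the 20 genes with the largest differences by the rule above, each point is the mean of shGATA2a and shGATA2b minus Control of the same replicate number, on log2(value + 1), with 22Rv1-DR above DU145-DR in each row and black bars at the mean of 3. Rows above the dotted line are genes with a higher response in 22Rv1-DR and rows under it genes with a lower one, and the line that moved more was DU145-DR in 14 of the 20.

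Mitotic genes formed the list with the most differences, all in one direction. Of 38 mitotic genes tested, 21 had a lower response in 22Rv1-DR and 0 a higher one, and the median difference was -0.50, beside -0.0015 over all genes. Over all tested genes 5.14% had a lower response and 4.31% a higher one. Each list count here and below is to be read beside these shares, and no list was tested as a set. In 22Rv1-DR 22 of the 38 fell and 0 rose, and in DU145-DR 8 rose and 2 fell. In bulk samples, fewer cells of a kind and less RNA per cell cannot be told apart, which bears on the mitotic and replication genes in particular. No mitotic gene was higher at an unadjusted limma p under 0.05, with edgeR or with DESeq2, and 26 were lower at that unadjusted p. The number with a lower response was 13 without DU145-DR Control replicate 1, 29 without 22Rv1-DR Control replicate 3 and 10 without the block.

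HMMR moved in both lines. It stood at 423, 323 and 350.5 in 22Rv1-DR shGATA2a libraries, at 492, 363 and 338 with shGATA2b, and at 714, 429.5 and 547 in the controls. Its DU145-DR values were 1498, 1349 and 1394 with shGATA2a, 1324, 992 and 1230.3 with shGATA2b, and 787, 782 and 899.5 in the controls. BIRC5, the inhibitor of apoptosis survivin, averaged 411 ± 82.9 in 22Rv1-DR knockdown libraries and 585 ± 109.6 in their controls, and 1915 ± 92.3 in DU145-DR knockdown libraries and 1418 ± 81.0 in their controls, a difference of -0.95 (adjusted p = 0.0011). NUF2, a kinetochore subunit, differed by -1.17 (adjusted p = 0.0015), SPAG5, a spindle protein, by -0.78 (adjusted p = 0.0018), and BUB1, a checkpoint kinase, by -0.77 (adjusted p = 0.0011). All 4 fell in 22Rv1-DR and rose in DU145-DR, as HMMR did.

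For TPX2, NEK2 and PRC1 the fall in 22Rv1-DR passed and the response in DU145-DR did not. TPX2, an activator of Aurora kinase A, averaged 1151 ± 112 in 22Rv1-DR knockdown libraries and 1679.8 ± 337 in their controls, and 4297 ± 334 in DU145-DR knockdown libraries and 4069.6 ± 449 in their controls. The difference was -0.61 for TPX2 (adjusted p = 0.0052), -0.57 for NEK2, a centrosomal kinase (adjusted p = 0.0039), and -0.59 for PRC1, a spindle midzone protein (adjusted p = 0.0085, lost without DU145-DR Control replicate 1). FOXM1, the transcription factor that drives many of these genes, fell in both lines by the values as deposited, with a difference of -0.01 (adjusted p = 0.97). However, 6 of its values were not whole reads, and whole values stood in 0 of its DU145-DR controls and 1 of its 22Rv1-DR controls. Its DU145-DR response and its difference could not be fitted without such values and are uncertain.

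Values that are not a whole number of reads touch this list. Among 296212 values above 0 in the 18 libraries, 183 values in 57 genes were not whole within 0.005 reads: 40 in knockdown libraries and 143 in controls, with 142 in 22Rv1-DR and 41 in DU145-DR. How they were made is not stated in the sources used here. Of the 38 mitotic genes 7 hold such values: PBK, RACGAP1, PTTG1, CENPF, NUSAP1 and CDK1, all with a lower response in 22Rv1-DR, and FOXM1. Among the 31 with whole values, 15 had a lower response and the median difference was -0.46.

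Genes with the smallest p among those holding such values are uncertain for this reason. PBXIP1 differed by 1.64, IGF2BP3 by -1.19, PTTG1 by -1.09, DEPDC1 by -1.20, MCM2 by -1.01 and RACGAP1 by -1.300, with adjusted p from 4.4e-05 to 0.0003. Of 25 genes that differed and held such values, 10 could be fitted with those values set missing, and all 10 kept their sign. In most of the 10, including PBXIP1, DEPDC1, MCM2 and RACGAP1, only 1 of the 22Rv1-DR controls was left. Such a fit gives a size of the difference and no sound test. PBXIP1 was then at 1.49, DEPDC1 at -1.42, MCM2 at -1.17 and RACGAP1 at -1.06. The other 15, among them IGF2BP3, PTTG1, NUSAP1 and CDK1, could not be fitted that way.

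**Figure D4:**
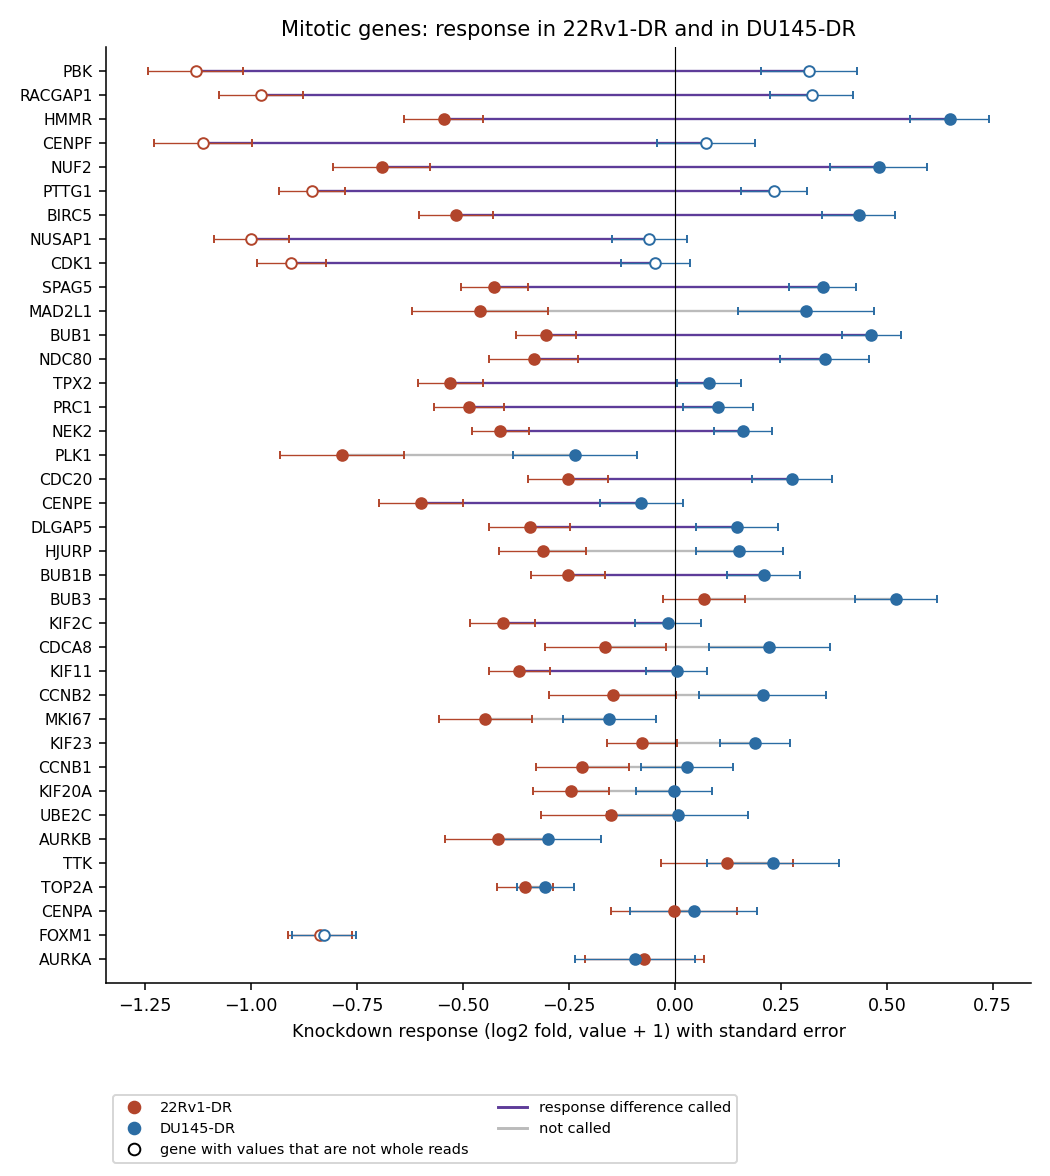
Knockdown response of the 38 mitotic genes tested (log2 fold on value + 1, with standard error), with 22Rv1-DR in red and DU145-DR in blue; open circles are genes with values that are not whole reads, and purple lines join the responses of the 21 genes whose difference passed. In all 21 the 22Rv1-DR response is the lower one.

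Of 43 DNA replication genes, 11 had a lower response in 22Rv1-DR and 0 a higher one, with a median difference of -0.27. In 22Rv1-DR 18 fell and 0 rose, and in DU145-DR 1 rose and 1 fell. ORC6, a subunit of the origin recognition complex, averaged 165 ± 35.7 in 22Rv1-DR knockdown libraries and 232 ± 65.6 in their controls, and 572 ± 50.5 in DU145-DR knockdown libraries and 453 ± 17.5 in their controls (difference -0.82, adjusted p = 0.003). DUT, which removes dUTP from the nucleotide pool, averaged 355 ± 38.0 in 22Rv1-DR knockdown libraries and 786 ± 149 in their controls, and 1103 ± 106 in DU145-DR knockdown libraries and 1257 ± 58.7 in their controls (difference -0.94, adjusted p = 0.0053). RPA3, a subunit of the single-strand binding complex, differed by -1.24. With its 2 values that were not whole set missing it differed by -0.84, with 1 of its 22Rv1-DR controls left. The count of 11 was 4 without DU145-DR Control replicate 1, 5 without DU145-DR Control replicate 2, and 7 without DU145-DR Control replicate 3, DU145-DR shGATA2a replicate 1 or 2, or 22Rv1-DR Control replicate 1. It was 19 without 22Rv1-DR Control replicate 2 and 2 without the block.

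MTHFD1, a cytosolic folate enzyme, averaged 417 ± 55.9 in 22Rv1-DR knockdown libraries and 931 ± 336 in their controls, and 2278 ± 242 in DU145-DR knockdown libraries and 2539 ± 319 in their controls (difference -0.95, adjusted p = 0.0076). TYMS, thymidylate synthase, differed by -0.76 (adjusted p = 0.014), lost without DU145-DR Control replicate 1 or 2.

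Histone genes went the other way. Of 19 replication-dependent histone genes tested, 4 had a higher response in 22Rv1-DR and 0 a lower one, and the median difference was 0.58. In 22Rv1-DR 5 rose and 0 fell, and in DU145-DR 1 rose and 1 fell. HIST1H2AC, an H2A histone gene, stood at 221, 207 and 150.2 in 22Rv1-DR shGATA2a libraries, at 170.1, 196 and 149.6 with shGATA2b and at 74.8, 100.2 and 92.1 in the controls. In DU145-DR it ran from 118 to 158 (median 136) in knockdown libraries, against 162, 134 and 129 in the controls. The groups separated in 22Rv1-DR and overlapped in DU145-DR, with a difference of 1.07 (adjusted p = 0.0057). HIST2H2BE differed by 1.04 (adjusted p = 0.014), lost without DU145-DR Control replicate 2 or 3, and HIST1H2BK by 1.09 (adjusted p = 0.018), lost without DU145-DR Control replicate 1 or 2. The count of 4 was 2 without DU145-DR Control replicate 2 and 2 without the block. Histone genes are near copies of each other, so reads may have been shared between them.

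Of 30 genes of the unfolded protein and integrated stress response, 9 had a lower response in 22Rv1-DR and 2 a higher one. In 22Rv1-DR 5 rose and 5 fell, and in DU145-DR 11 rose and 1 fell. HSP90B1, the chaperone endoplasmin, stood at 11484, 10708 and 13260.0 in 22Rv1-DR shGATA2a libraries, at 10665, 11224 and 13646 with shGATA2b and at 13821, 12766 and 22910.1 in the controls. In DU145-DR it stood at 18975, 19411 and 18027 with shGATA2a, at 17301, 14902 and 16787 with shGATA2b and at 12039, 12336 and 12406 in the controls. The DU145-DR groups did not overlap; the 22Rv1-DR groups did, with the replicate 3 control far above the other controls. HSP90B1 differed by -0.95 (adjusted p = 0.0026), HERPUD1, a protein of the degradation machinery of the endoplasmic reticulum, by -0.74 (adjusted p = 0.00093) and PDIA3, a disulfide isomerase, by -0.80 (adjusted p = 0.0043). All 3 fell in 22Rv1-DR and rose in DU145-DR. For HERPUD1 the 22Rv1-DR groups overlapped, with knockdown libraries up to 2118 and controls from 1447, and separated within each replicate number. Its difference did not pass without the block (limma, adjusted p = 0.25). For PDIA3 the 22Rv1-DR groups did not overlap, but control replicate 3 stood at 5862 and the other controls at 3825 and 3727.

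VLDLR, a lipoprotein receptor induced by the kinase PERK, rose in DU145-DR and differed by -0.75 (adjusted p = 0.0092). HSPA5, the chaperone BiP, also rose there and differed by -0.50 (adjusted p = 0.017), lost without DU145-DR Control replicate 1 or 2. ERN1, the sensor kinase IRE1, ran against the list with a difference of 0.93 (adjusted p = 0.012), lost without DU145-DR Control replicate 1. The count of 9 was 4 without DU145-DR Control replicate 1, 5 without DU145-DR Control replicate 2 and 2 without the block. The count of 2 was 0 without DU145-DR Control replicate 1 or the block, and 1 without DU145-DR Control replicate 3 or DU145-DR shGATA2a replicate 1.

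Of 18 heat shock genes, 3 had a lower response in 22Rv1-DR and 0 a higher one. HSP90AB1, a cytosolic chaperone, ran from 13661 to 14982 (median 14383) in 22Rv1-DR knockdown libraries, against 20618, 19672 and 20319 in the controls, without overlap. In DU145-DR it ran from 42765 to 47875 (median 45248) with knockdown, against 35387, 39894 and 42444 in controls. These groups separated as well, upward, but the response missed the threshold (adjusted p = 0.1), and the difference was -0.71 (adjusted p = 0.0037). The count was 1 without DU145-DR Control replicate 1 or without the block.

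PREX1, an exchange factor for Rac, fell in both lines but further in 22Rv1-DR. There it ran from 1304 to 1740.4 (median 1596) with knockdown, against 4269, 3912 and 5768 in the controls, and in DU145-DR from 151 to 209 (median 174), against 277, 239 and 239. No group overlapped its controls, and the difference was -1.05 (adjusted p = 0.0012), with a response of -1.57 in 22Rv1-DR and -0.53 in DU145-DR. RHOA, a small GTPase that controls the actin cytoskeleton, averaged 4242 ± 491 in 22Rv1-DR knockdown libraries and 7027 ± 419.8 in their controls, and 7451 ± 569.8 in DU145-DR knockdown libraries and 7479 ± 478 in their controls (difference -0.73, adjusted p = 0.0043). PREX1 and RHOA held their calls without any 1 library.

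Of 24 mesenchymal genes, 5 had a lower response in 22Rv1-DR and 1, SNAI2, a higher one. Beside CALD1, FN1, which encodes fibronectin, averaged 3507 ± 528 in 22Rv1-DR knockdown libraries and 4518 ± 733 in their controls, and 209 ± 50.6 in DU145-DR knockdown libraries and 171 ± 66.1 in their controls. Its difference was -0.68 (adjusted p = 0.0083), and its groups overlapped in both lines. CTGF, a matricellular growth factor, differed by -0.87 (adjusted p = 0.009) and TWIST1, a mesenchymal transcription factor, by -1.24 (adjusted p = 0.017), both lost without DU145-DR Control replicate 1. TWIST1 averaged 0.155 ± 0.380 in DU145-DR knockdown libraries and was at 0 in their controls, so its difference is the fall in 22Rv1-DR. VIM, vimentin, differed by -0.47 (adjusted p = 0.54). The count of 5 was 2 without DU145-DR Control replicate 1 and 1 without the block. The count of 1 was 0 in the 6 fits in which SNAI2 lost its call and 2 without 22Rv1-DR Control replicate 1, 22Rv1-DR shGATA2a replicate 1 or 22Rv1-DR Control replicate 3.

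Among 21 integrin genes, 3 had a lower response in 22Rv1-DR and 1 a higher one, beside 5.14% and 4.31% of all tested genes. ITGA5, the fibronectin receptor α subunit, was the higher one: it averaged 2401 ± 212 in 22Rv1-DR knockdown libraries and 1831 ± 276 in their controls, and 2154 ± 144 in DU145-DR knockdown libraries and 2392 ± 201 in their controls (difference 0.55, adjusted p = 0.007). ITGB5 differed by -0.94 (adjusted p = 0.022), lost without any 1 of the DU145-DR controls. The count of 3 was 1 without any 1 of those controls or without the block. Of 26 epithelial junction genes, JUP, F11R and PVRL1 had a higher response in 22Rv1-DR and CLDN4 a lower one. F11R, a tight junction adhesion molecule, differed by 0.55, PVRL1, a nectin, by 0.64 and the claudin CLDN4 by -1.02, and all 3 were lost without DU145-DR Control replicate 1. Without 22Rv1-DR Control replicate 3, 3 junction genes had a lower response.

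Of 26 drug efflux and tubulin genes, which matter for taxane drugs, 7 had a lower response in 22Rv1-DR and 1, MAP4, a higher one. In 22Rv1-DR 1 rose and 1 fell, and in DU145-DR 9 rose and 1 fell. MAP2, a microtubule-associated protein, ran from 2084 to 3150.1 (median 2456) in 22Rv1-DR knockdown libraries, against 2105, 2053 and 2322 in the controls, and from 269.7 to 363 (median 312) in DU145-DR knockdown libraries, against 149, 172 and 168 in the controls. MAP2 separated the groups in DU145-DR and not in 22Rv1-DR, with a difference of -0.71 (adjusted p = 0.003). TUBB6, a β-tubulin, averaged 1026 ± 148 in 22Rv1-DR knockdown libraries and 1204 ± 233 in their controls, and 3546 ± 337 in DU145-DR knockdown libraries and 2579.9 ± 73.9 in their controls (difference -0.68, adjusted p = 0.0055). TUBB3, the β-tubulin linked to taxane resistance, differed by -0.66 (adjusted p = 0.011) and MAP4, another microtubule-associated protein, by 0.59 (adjusted p = 0.019), both lost without DU145-DR Control replicate 1. The count of 7 was 2 without DU145-DR Control replicate 1, 4 without DU145-DR Control replicate 2 or 3 or DU145-DR shGATA2a replicate 1, and 0 without the block.

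Of 21 NRF2 antioxidant genes, 6 had a lower response in 22Rv1-DR and 1, HMOX1, a higher one. PGD, an enzyme of the pentose phosphate pathway, ran from 933 to 1412 (median 1189) in 22Rv1-DR knockdown libraries, against 1489, 1254 and 1304 in the controls, and from 5125 to 6639 (median 5157) in DU145-DR knockdown libraries, against 4094, 3676 and 3469; its difference was -0.79 (adjusted p = 0.0015). HMOX1, heme oxygenase, rose in 22Rv1-DR and fell in DU145-DR, with overlap in both lines. It averaged 247 ± 111 in 22Rv1-DR knockdown libraries and 137 ± 38.5 in their controls, and 779.6 ± 247 in DU145-DR knockdown libraries and 1198 ± 149 in their controls (difference 1.44, adjusted p = 0.0091). The count of 6 was 1 without DU145-DR Control replicate 1 and 0 without the block, and the count of 1 was 2 without 22Rv1-DR Control replicate 3 and 0 without the block.

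Of 28 apoptosis regulators, 2 had a lower response in 22Rv1-DR and 3 a higher one, beside 5.14% and 4.31% of all tested genes. TNFRSF10D, a decoy receptor for the death ligand TRAIL, ran from 689.7 to 977 (median 743) in 22Rv1-DR knockdown libraries, against 602, 678 and 937 in the controls, and from 1490.1 to 2707 (median 1775) in DU145-DR knockdown libraries, against 734, 635 and 690.2. It separated the groups in DU145-DR and not in 22Rv1-DR, with a difference of -1.32 (adjusted p = 0.0003). PMAIP1, the BH3-only protein NOXA, differed by -1.13 (adjusted p = 0.0011) and averaged 698 ± 126 in DU145-DR knockdown libraries and 386 ± 19.1 in their controls. BMF, another BH3-only protein, averaged 3255 ± 428 in 22Rv1-DR knockdown libraries and 2219 ± 107 in their controls, and 115 ± 21.7 in DU145-DR knockdown libraries and 152 ± 44.4 in their controls (difference 0.93, adjusted p = 0.0051). The count of 3 was 1, BMF, in 10 of the 18 fits without 1 library and 0 without the block, while TNFRSF10D and PMAIP1 passed without the block.

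Of 25 TGF-beta and BMP genes, 3 had a lower response in 22Rv1-DR and 2 a higher one, beside 5.14% and 4.31% of all tested genes. TGFB2, a ligand, ran from 317 to 459 (median 389) in 22Rv1-DR knockdown libraries, against 485, 472 and 538 in the controls, and from 34.7 to 73.3 (median 55.5) in DU145-DR knockdown libraries, against 18.9, 14.3 and 37.2, with a difference of -1.64 (adjusted p = 0.0019). TGFB1, its paralog, went the other way by 0.96 (adjusted p = 0.0085), lost without DU145-DR Control replicate 1. ID3, a target of BMP signalling, averaged 4179 ± 510.2 in 22Rv1-DR knockdown libraries and 4079.8 ± 1032 in their controls, and 1804 ± 205 in DU145-DR knockdown libraries and 2898 ± 249 in their controls (difference 0.75, adjusted p = 0.0061). Without DU145-DR Control replicate 1 the counts were 1 lower and 1 higher, and without 22Rv1-DR Control replicate 3, 4 genes were higher. The counts were 1 lower and 0 higher without the block.

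Of 30 ERK feedback and immediate early genes, 3 had a lower response in 22Rv1-DR and 2 a higher one. The shares of all tested genes were 5.14% and 4.31%. DUSP1, a phosphatase of MAP kinases, averaged 1986 ± 411 in 22Rv1-DR knockdown libraries and 1520.4 ± 455 in their controls, and 1987 ± 201 in DU145-DR knockdown libraries and 2891 ± 263 in their controls (difference 0.95, adjusted p = 0.003). SPRED1, an inhibitor of the pathway, differed by -0.72 (adjusted p = 0.003) and DUSP4, another phosphatase, by -0.58 (adjusted p = 0.017, lost without DU145-DR Control replicate 1 or 2). The lower count was 1 without either of those controls, and the higher count was 1 in the 12 fits in which DUSP2 lost its call. Both counts were 0 without the block. Of 23 Notch and Hedgehog genes, 2 were higher and 1 lower, beside 4.31% and 5.14% of all tested genes. MAML1, a Notch coactivator, differed by 0.83 (adjusted p = 0.0021) and SUFU, an inhibitor of Hedgehog signalling, by 0.71 (adjusted p = 0.0069), and both fell in DU145-DR. The Notch ligand DLL4 differed by -1.42 (adjusted p = 0.019), lost without DU145-DR Control replicate 1 or 2.

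Of 16 genes of the insulin-like growth factor system, 4 had a lower response in 22Rv1-DR and 0 a higher one. IGF2BP3 among them holds values that are not whole, and IRS1, IGFBP1 and IGFBP5 lost their calls in 3, 14 and 13 of the 18 fits. IGFBP1 was at 0 in every DU145-DR library. KLK3 (-1.37) and TMPRSS2, a membrane serine protease of the prostate (-1.26), fell in 22Rv1-DR and had at most 0.694 in any DU145-DR library, so these differences restate the response of 22Rv1-DR. They lost their calls in 2 and 10 of the 18 fits without 1 library. All 3 TMPRSS2 values in 22Rv1-DR controls were not whole reads, so its difference could not be fitted without such values. For KLK3 1 of these control values was not whole, and the difference without it was -1.48 (adjusted p = 0.023).

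In the remaining lists few members differed, and the shares of all tested genes were 5.14% lower and 4.31% higher. HK2, hexokinase, averaged 13069.8 ± 5059 in 22Rv1-DR knockdown libraries and 16847 ± 9387 in their controls, and 585 ± 59.6 in DU145-DR knockdown libraries and 365 ± 82.4 in their controls (difference -1.005, adjusted p = 0.0015). It was among 4 of 30 hypoxia and glycolysis genes that were lower in 22Rv1-DR, with BNIP3, a mitophagy receptor, at -0.61 (adjusted p = 0.0061). That count of 4 was 2 without DU145-DR Control replicate 1 or 2 and 0 without the block. IL11, a cytokine of the interleukin 6 family, was the single gene that limma called among 20 NF-kB targets and cytokines. That count of 1 was 3 without 22Rv1-DR Control replicate 2 or 3, 2 without 22Rv1-DR shGATA2a replicate 2 or shGATA2b replicate 1 or 2, 2 with edgeR or DESeq2 and 0 without the block. It stood at 935, 989 and 943 in DU145-DR shGATA2a libraries, at 1031, 712 and 940.5 with shGATA2b and at 431, 452 and 455 in the controls, and did not exceed 10.5 in any 22Rv1-DR library (difference -1.26, adjusted p = 0.0069).

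Polyamine genes gave 2 of 11 lower, SMS, spermine synthase (-0.58), and AZIN1, antizyme inhibitor (-0.56), each with an adjusted p of 0.0052. That count of 2 was 0 without the block. POM121C, a nuclear pore protein, averaged 2274 ± 150.2 in 22Rv1-DR knockdown libraries and 2176 ± 285 in their controls, and 347 ± 82.9 in DU145-DR knockdown libraries and 589.7 ± 83.7 in their controls (difference 0.86, adjusted p = 0.006). Its near copy POM121, which holds 9 values that are not whole, differed by 0.16 (adjusted p = 0.55), and reads may be shared between them. Of 11 fatty acid synthesis genes, the desaturase FADS2 was lower (-0.75, adjusted p = 0.0056). Of 12 GATA factors and cofactors, the cofactor LDB1 was higher (0.49, adjusted p = 0.024), lost without DU145-DR Control replicate 1, DU145-DR Control replicate 3 or DU145-DR shGATA2a replicate 1.

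Among 20 aminoacyl-tRNA synthetases limma called 0 in either direction after adjustment. At an unadjusted p under 0.05 it had 1 higher and 7 lower, while edgeR called 0 and DESeq2 3 lower. Respiratory chain subunits, ribosomal proteins and receptor tyrosine kinases gave 1 call each with limma, all higher: CYC1, RPS16 and FGFR2, which lost their calls in 12, 11 and 14 of the 18 fits. For the respiratory chain edgeR called 1 higher and 0 lower, and DESeq2 2 higher and 3 lower. For receptor tyrosine kinases both tools called 0, while 5 were higher and 2 lower at an unadjusted limma p under 0.05. Without 22Rv1-DR Control replicate 3, 5 receptor tyrosine kinases were higher with limma. The 58 ribosomal protein genes had a median difference of 0.29, and without 22Rv1-DR Control replicate 2, 20 of them passed as higher; edgeR called 1 higher and DESeq2 4. Cholesterol synthesis gave 1 higher and 1 lower of 25, p53 targets 3 and 3 of 22, and nuclear pore genes 2 and 2 of 30. Interferon response genes gave 3 lower of 28, HLA class I and peptide loading genes 4 of 17, and secretory cargo receptors and coats 3 of 32, with 0 higher in each by limma, edgeR and DESeq2 and 0 at an unadjusted limma p under 0.05. The same held for the higher direction of the DNA replication list. Of the other lists with a count of 0 in 1 direction, the heat shock list had 3 higher at that unadjusted p, 0 with edgeR and 1 with DESeq2. The insulin-like growth factor list had 1 higher and the histone list 1 lower at that unadjusted p, and both had 0 with edgeR and DESeq2. Without DU145-DR Control replicate 1 the cholesterol, p53, nuclear pore, interferon, HLA and secretory lists each had at most 1 call in either direction, and without 22Rv1-DR Control replicate 3, 11 secretory genes were lower.

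**Figure D5:**
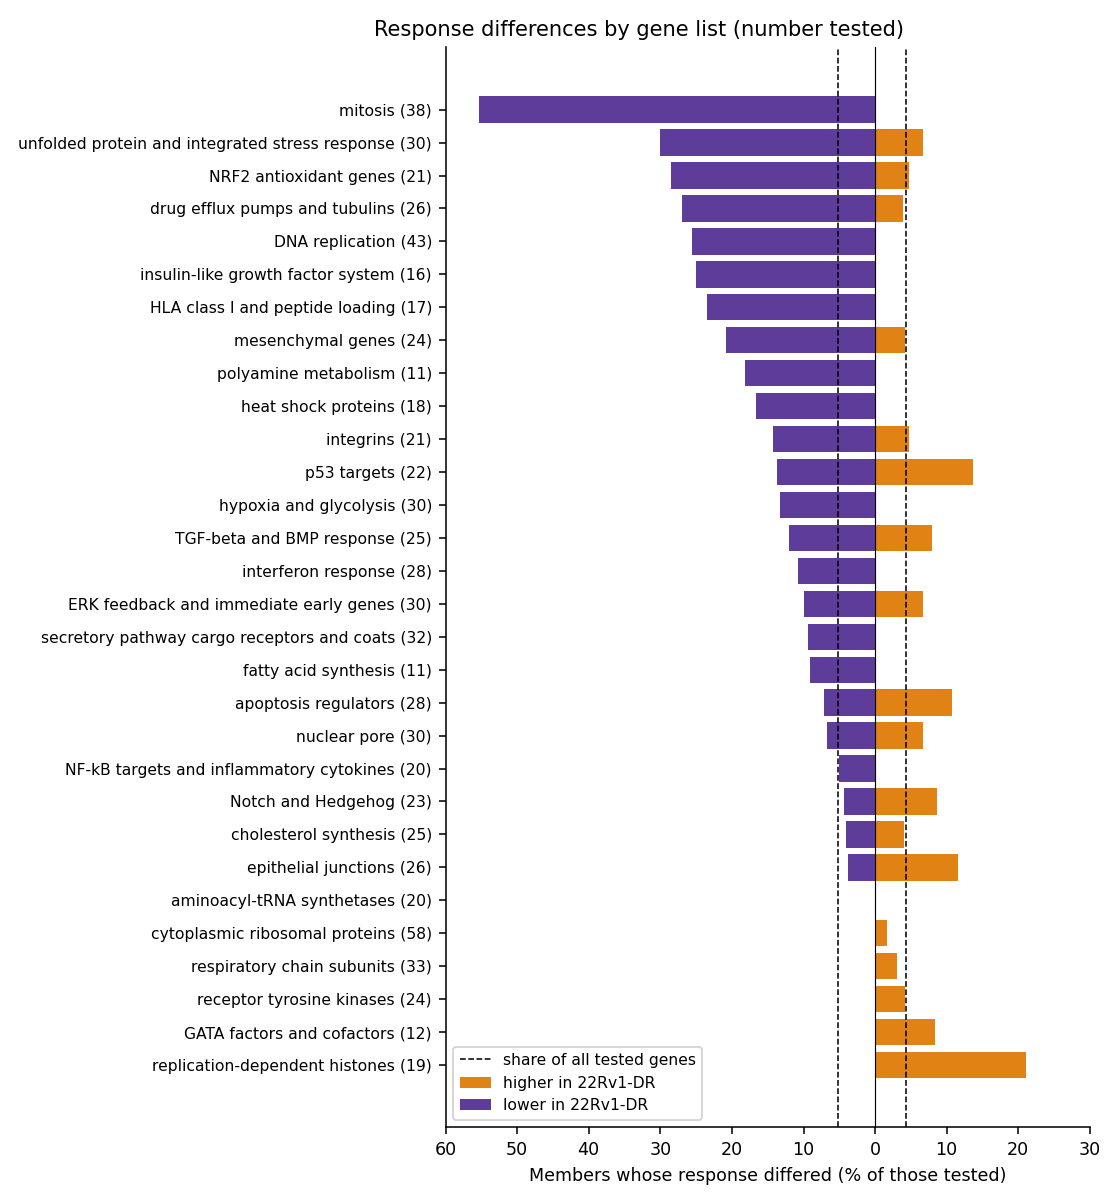
Share of each plotted list's tested members (number in parentheses) whose response was higher (right, orange) or lower (left, purple) in 22Rv1-DR, with dashed lines at the shares of all tested genes, 4.31% and 5.14%. Mitosis extends farthest to the left with 21 of 38 and histones farthest to the right with 4 of 19.

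Markers of other cell types and signs of RNA quality were measured beside these results. Of 8 basal prostate markers tested, KRT15 (-2.34, adjusted p = 0.0052) and COL17A1 (-1.36, adjusted p = 0.029, lost in 8 of 18 fits) had a lower response in 22Rv1-DR. The sum of 12 basal markers ran from 139 to 315.0 in 22Rv1-DR knockdown libraries and from 122 to 315.4 in their controls, and from 5244 to 7402 in DU145-DR knockdown libraries and from 3477 to 3851 in their controls; the defining markers KRT5, KRT14 and TP63 did not exceed 4.44 in any library. Of 7 neuroendocrine markers tested SYP was higher (0.58, lost in 14 fits). Fibroblast, endothelial and blood cell markers gave 0 calls with limma among 4, 4 and 2 genes tested. At an unadjusted p under 0.05 the blood cell markers had 1 higher, edgeR and DESeq2 called 1 higher each, and the fibroblast and endothelial markers had 0, as they did with edgeR and DESeq2. The summed fibroblast markers ran from 1304 to 2001 in 22Rv1-DR knockdown libraries and from 1391 to 4307 in their controls, and from 103 to 198 in DU145-DR knockdown libraries and from 192 to 237 in their controls. Of 7 RNA quality genes, the nuclear RNA NEAT1 differed by 1.08 (adjusted p = 0.0074), at 2877 to 5927 in DU145-DR knockdown libraries and 7524 to 12418 in their controls, and KCNQ1OT1 by -1.51 (lost in 14 fits). Their part in the differences was not tested.

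Genes with a higher response in 22Rv1-DR had a median transcript GC content of 56.0%, those with a lower response 46.2%, and all tested genes 50.2%. Over the 14096 genes with a GC value, GC content correlated at 0.04 with the difference (Pearson). It correlated at -0.24 with the response in 22Rv1-DR and at -0.27 with that in DU145-DR. With each library corrected for GC content and the block kept, 1843 genes differed, against 1390 of the same genes uncorrected, and 22 mitotic genes were lower.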

How the data were processed

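The authors deposited 1 table of 23228 gene symbols. Its values are a signal that the authors normalised per library: as deposited, they are read counts divided by 1 size factor per library, which was found from the values. Of 296212 values above 0 in the 18 libraries, 99.938% were whole reads within 0.005. Per the submitters' processing notes, TopHat2 2.0.9 and Cufflinks 1.3.0 were used with hg19 (GRCh37); the counting program and strand use were not stated in the sources used here. Genes reaching 10 in 3 or more of 18 libraries were fitted with limma 3.58.1 (R 4.3.3) on log2(value + 1), which understates changes of low genes, with a trend, 6 groups and the replicate number within line as a block (8 residual degrees of freedom). P-values are Benjamini-Hochberg adjusted over all 14811 genes, at a threshold of 0.05. Counts of genes that rose, fell, or were higher or lower are of genes past it, unless another setting is named.

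The pairing comes from the data: deviations of same-numbered libraries correlated at 0.17 or more in 22Rv1-DR and 0.19 or more in DU145-DR over 9 pairs in each line. Replicates differed by 6.69 to 34.6 chi-square per degree of freedom, except 22Rv1-DR Control replicate 3, at 99.8 and 103.7 from the other controls; none counted as repeats. Median depth was 13.2 M reads. A gene at 0 could hold up to 3 reads, for counting error only.

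Named genes were GATA2, the 10 largest differences in each direction, 6 opposed genes of each kind, 3 or fewer per list by smallest p, and 6 with values not whole; further list members were named after their values were seen. The comparison and lists were chosen with earlier results of these data known. Alternatives included edgeR 4.0.16 and DESeq2 1.42.0 on recovered reads. Results on some genes and lists are not reported here.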

Additional observations from a re-analysis of the deposited data

Results flagged for a closer look

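A difference between the lines under the same contrast, tested as the interaction of line and knockdown (limma, adjusted p under 0.05), singled out 1400 genes, and 101 of the genes that passed in both lines did so in opposite directions. The same test called each gene named as higher or lower in the report. Counts given for an unadjusted p, for edgeR or DESeq2, or for a fit with libraries left out rest on those settings instead. Of the opposed genes named, GPRC5A (1.62), HIST1H1C (1.18), TSKU (1.25), TBC1D17 (1.08), TPCN1 (1.06) and CTSA (1.25) had a higher response in 22Rv1-DR. CALD1 (-1.97), MCAM (-1.66), TOMM22 (-1.08), SFXN3 (-0.81), HMMR (-1.19) and FBXO45 (-0.83) had a lower one. Groups of 3 are too small for a test of single outlying libraries.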

How the results depend on the processing

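Against 1400 genes that differed, 157 did so without the replicate block and 426 with shGATA2b alone; over the fits that left out a replicate number or a library, the count ran from 290 to 2627. Leaving out a DU145-DR replicate number gave 290, 564 and 609. The count was 1321 with a pseudocount of 0.1, 1209 without the filter, 1326 with quantile normalisation, 1416 with TMM scaling, 1405 with edgeR and 1774 with DESeq2. For GATA2 the difference was -0.10 without DU145-DR Control replicate 1, or without all of replicate 1 in that line, and it ran from -0.10 to 0.30 over such fits; it passed in none of the settings run. The cause of these changes was not tested, and a fit without libraries also holds fewer samples. All 1400 differences kept their sign in each setting that gave a value, but these settings reuse the data from which the 1400 were picked. Genes at a few reads in a line are limited by depth.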
